A study of Mus musculus with 2 samples.

Results

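The GIMAP genes encode GTPases of the immunity-associated proteins, a small family found mainly in lymphocytes, and were chosen by symbol: Gimap1, Gimap3, Gimap4, Gimap5, Gimap6, Gimap7, Gimap8 and Gimap9. All 8 were present among the 16386 genes of both tables. RNA had been sequenced from sorted stage 1 invariant natural killer T (iNKT) cells, an early thymic step of a T cell lineage with a semi-invariant receptor. The first group was a knockout (KO) of Uhrf1, the factor that guides maintenance DNA methylation after replication, and the second was wild type (WT). Both groups were C57BL/6 mice, 5 weeks old, whose thymus was taken, with 1 library per genotype. The sources used here give neither the number of mice per library, nor the sorting gate, nor how the deletion was made. With 1 library each, differences could not be set against a spread between replicates, and no test was run.

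GIMAP proteins share a GTP-binding domain related to that of septins and dynamins, and several are anchored in the membranes of intracellular compartments. Their levels are known to climb as thymocytes mature into T cells, and loss of Gimap1 or Gimap5 in mice leaves few peripheral T cells. Gimap3 and Gimap5 are close relatives that were found bound to BCL2 family proteins, Gimap4 has been linked to the execution of apoptosis in T cells, and Gimap6 binds an ATG8 family protein of the autophagy machinery. Human GIMAP7 can stimulate the GTPase activity of another family member.

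The genes lie in 1 cluster of 124 kb on chromosome 6 (48647186 to 48770851 in GRCm38, the assembly also called mm10). Gimap8, Gimap9, Gimap4, Gimap7, Gimap1 and Gimap5 are on the plus strand, Gimap6 and Gimap3 on the minus strand. Promoter windows of 300 bases, 250 before and 50 after the RefSeq start in GRCm38.p6, were found for all 8 genes, with 2 windows for Gimap8. The windows of the 2 genes that differed most between the libraries, and of the gene that differed least, are printed 5′ to 3′ on the gene's strand. Capitals mark each CpG, the dinucleotide at which Uhrf1 acts; no methylation was measured in these data.
Gimap7, chr6:48718371-48718670, plus strand: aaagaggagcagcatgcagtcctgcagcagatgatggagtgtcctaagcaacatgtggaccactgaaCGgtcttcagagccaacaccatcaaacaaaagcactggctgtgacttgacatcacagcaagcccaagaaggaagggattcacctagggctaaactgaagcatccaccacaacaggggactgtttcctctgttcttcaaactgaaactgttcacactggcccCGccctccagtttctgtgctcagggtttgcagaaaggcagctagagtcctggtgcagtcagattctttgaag
Gimap3, chr6:48770802-48771101, minus strand: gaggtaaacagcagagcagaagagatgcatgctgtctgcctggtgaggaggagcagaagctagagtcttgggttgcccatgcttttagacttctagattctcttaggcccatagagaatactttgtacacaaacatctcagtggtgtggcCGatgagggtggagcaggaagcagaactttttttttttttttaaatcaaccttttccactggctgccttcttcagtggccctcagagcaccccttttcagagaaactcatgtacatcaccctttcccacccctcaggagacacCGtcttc
Gimap9, chr6:48675885-48676184, plus strand: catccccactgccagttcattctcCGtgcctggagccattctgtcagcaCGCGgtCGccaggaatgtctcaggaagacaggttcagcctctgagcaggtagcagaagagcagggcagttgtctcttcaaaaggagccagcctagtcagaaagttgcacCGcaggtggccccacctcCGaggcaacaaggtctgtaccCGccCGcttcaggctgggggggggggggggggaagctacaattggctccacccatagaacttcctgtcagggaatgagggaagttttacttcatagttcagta
Gimap7 and Gimap3 had 2 CpGs each in their windows, and Gimap9 had 8. The windows of Gimap8 had 3 and 2, and those of Gimap4, Gimap6, Gimap1 and Gimap5 had 4 each. Whether the CpG count goes with the difference between the libraries was not tested. Across the 9 windows of the family the median was 4, with a range of 2 to 8. Over 32817 promoter windows of the same length the median was 7, with quartiles of 3 and 20. A window with as few CpGs as those of Gimap7 and Gimap3 was found for 23.3% of all promoters, and 54.2% had no more than Gimap9.

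Short motifs of factors known in T cells were searched in the same windows on both strands. Letters of a motif could also belong to another. The ETS core GGAAGT was found in 4 of the 9 windows, those of Gimap9, Gimap6, Gimap1 and Gimap5, against 23.8% of all promoters. The RUNX motif TGTGGT was found in those of Gimap4, Gimap7 and Gimap1 (16.8% of all promoters). The FOXO motif GTAAACA was found only in the Gimap3 window (3.65% of all promoters), which also held the only match to the RBPJ motif TGGGAA (25.6%). The KLF motif CACCC was found in 6 windows (57.5%) and the E-box CANNTG in 7 (72.3%). Both counts include the 2 windows of Gimap8, which overlap, so that gene is counted 2 times in each. The TATA box TATAAA was found in the window of Gimap6 alone (13.6%), and the GATA motif AGATAA in none (11.2%). These matches describe letters and not bound sites.

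The labels were checked on Uhrf1 itself, which had 0.626 FPKM (fragments per kilobase of transcript, scaled to library size) and 25 reads in the KO library, against 35.3 FPKM and 3032 reads in the WT library. Reads assigned to genes numbered 12189853 in the KO library and 26005825 in the WT library, so the KO library was the shallower. The CD3 genes Cd3e and Cd3g of the T cell receptor complex, named here after their values were seen, were abundant in both libraries. They had 271 and 1295 FPKM in the KO, against 240 and 949 FPKM in the WT. Of 12 genes listed for early iNKT cells, Cd3e and Cd3g included, 2 were higher in the KO and 6 were lower. The median log2 ratio of the list was -0.48. By the same size rule, given next with the ratio, 21.3% of all measured genes were higher and 23.6% lower. Cd5 and Slamf1, named after their values were seen, were the 2 higher genes. Cd5 had 230 FPKM in the KO and 84.3 FPKM in the WT, and Slamf1 had 5.59 FPKM in the KO and 1.20 FPKM in the WT. Icos and Il17rb were among the lower genes. Icos had 62.0 FPKM in the KO and 247 FPKM in the WT, and Il17rb had 8.61 FPKM in the KO and 72.8 FPKM in the WT.

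All 8 Gimap genes had a higher level in the KO library than in the WT library, by very different amounts. The measure was the log2 ratio, log2((KO FPKM + 1) / (WT FPKM + 1)), and a gene is said to have risen or fallen where it reached 1 in size at a mean FPKM of at least 1. By this rule 3 of the 8 genes rose (Gimap7, Gimap3 and Gimap5), 0 fell and 5 did not pass. Among all 9955 genes measured, 21.3% rose and 23.6% fell, and among the 3045 with a mean FPKM of at least 25 the shares were 15.3% and 10.8%. The median log2 ratio was 0.88 over the Gimap genes and -0.0048 over all measured genes, whose ratios had an SD of 1.58. A log2 ratio above 0 was found for 49.9% of all measured genes. In bulk RNA, fewer cells of a type and less RNA per cell cannot be told apart.

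**Figure D1:**
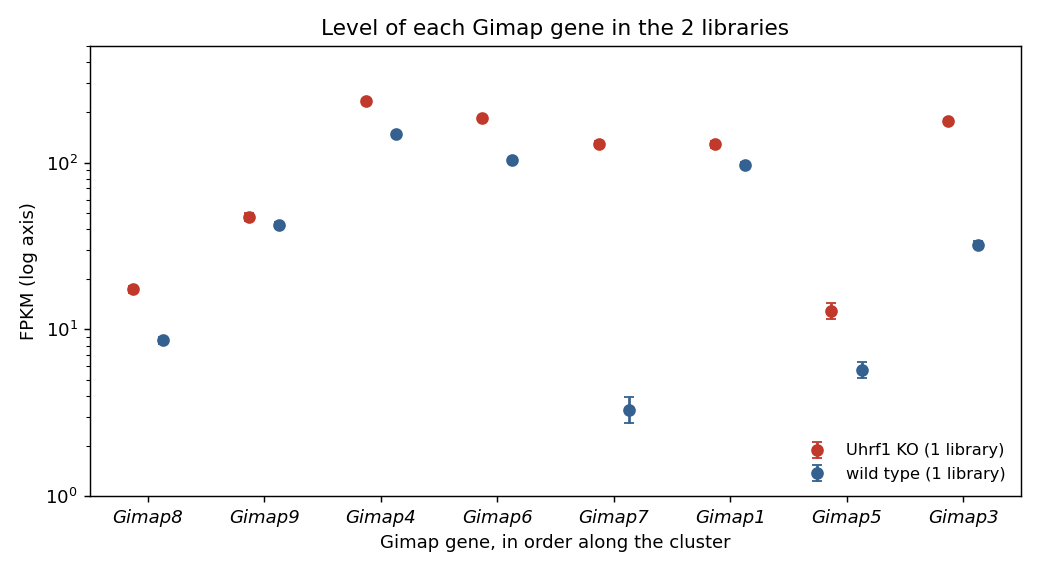
Level of each Gimap gene in FPKM on a log axis, in the order of the genes along the cluster, with the Uhrf1 KO library left of the wild-type library. Bars are exact 95% Poisson intervals from the reads and cover counting error only; all 8 KO points lie above their wild-type points, from 47.1 against 42.3 FPKM for Gimap9 to 129 against 3.29 FPKM for Gimap7.

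Gimap7 differed most. It had 129 FPKM on 2246 reads in the KO library, against 3.29 FPKM on 124 reads in the WT library. The fold of scaled counts was 38.6 (95% exact interval 32.2 to 46.7), and the log2 ratio was 4.92. All intervals given are for counting error alone: without molecular identifiers, PCR copies cannot be told from separate molecules. The gene stood at rank 829 of all genes by FPKM in the KO library and at rank 7640 in the WT library. Of 897 genes with a WT level near its own, between 2.63 and 4.11 FPKM, 3 had a ratio at least as high, itself included.

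Gimap3, the partner of Gimap5 in sequence and in binding to BCL2 proteins, came next. Its level was 178 FPKM on 5152 reads in the KO library and 32.3 FPKM on 2020 reads in the WT library, a 5.44-fold difference in scaled counts (interval 5.17 to 5.73). The ranks were 616 in the KO library and 2455 in the WT library. Of 786 genes with a WT level between 25.8 and 40.3 FPKM, 4 had a ratio at least as high, Gimap3 included. The same count, within 1.25-fold of each gene's WT level, was 26 of 268 genes for Gimap4 and 32 of 356 for Gimap6. It was 177 of 1104 for Gimap8, 190 of 1058 for Gimap5, 89 of 374 for Gimap1 and 265 of 708 for Gimap9.

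Gimap5, whose loss causes lymphopenia in rats and mice, was the least abundant member in the KO library. It had 12.9 FPKM on 330 reads in the KO, against 5.72 FPKM on 316 reads in the WT, a fold of 2.23 (interval 1.90 to 2.61). Its log2 ratio of 1.05 lay just inside the rule, and part of its sequence is shared with the far more abundant Gimap3. Gimap8, the longest gene of the cluster, lay just outside with a log2 ratio of 0.94, from 17.4 FPKM on 1518 reads in the KO and 8.58 FPKM on 1488 reads in the WT. Its fold was 2.18 (interval 2.02 to 2.34), so that the folds of Gimap5 and Gimap8 overlap within counting error and the line between them follows from the rule. With a pseudocount of 5 the ratio of Gimap5 was 0.74, and after scaling to the upper quartile it was 0.93. On the scaled counts Gimap8 reached 1.12.

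The 4 remaining genes included the 3 most abundant members of the WT library. Gimap4 had 233 FPKM on 3868 reads in the KO and 149 FPKM on 6346 reads in the WT, a 1.56-fold ratio of FPKM but a 1.30-fold ratio of scaled counts (interval 1.25 to 1.35). Gimap6 had 184 FPKM on 4239 reads in the KO and 104 FPKM on 5160 reads in the WT, a fold of 1.75 (interval 1.68 to 1.83). Gimap1, needed for the survival of mature T and B cells in mice, had 129 FPKM on 1623 reads in the KO and 97.1 FPKM on 2743 reads in the WT, a fold of 1.26 (interval 1.19 to 1.34). Of these 3, Gimap6 came nearest to the rule, with a log2 ratio of 0.83, while Gimap4 stood at 0.64 and Gimap1 at 0.40.

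Gimap9 was nearly level. It had 47.1 FPKM on 1304 reads in the KO and 42.3 FPKM on 2373 reads in the WT, with a fold of 1.17 (interval 1.09 to 1.25) and a log2 ratio of 0.15. Scaling both libraries to their upper quartile brought that ratio to 0.016. That scaling moved the median of all measured genes to -0.13, so Gimap9 stayed slightly above it.

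**Figure D2:**
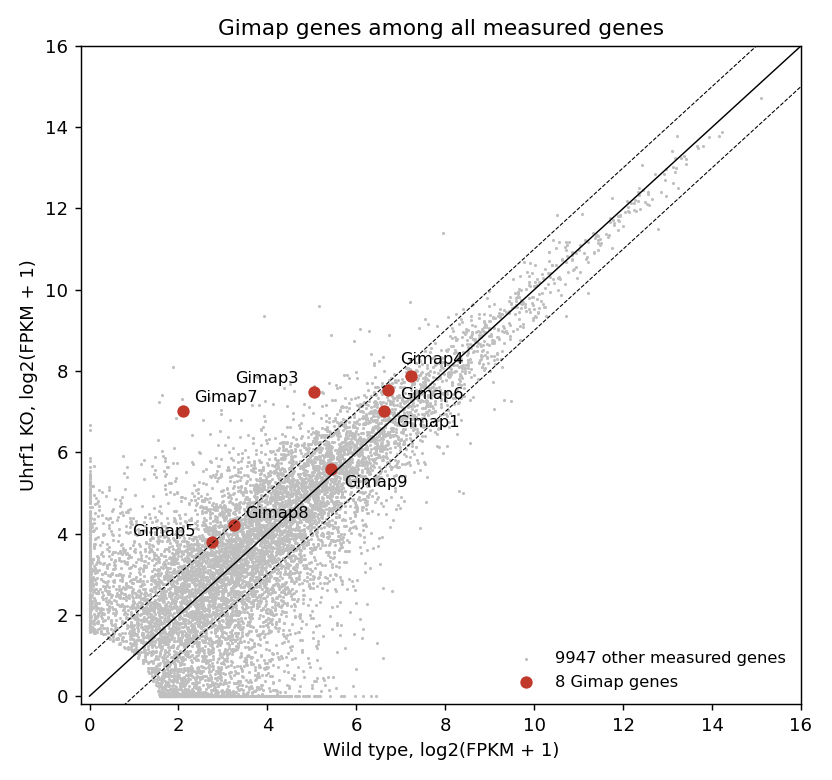
Levels as log2(FPKM + 1) in the Uhrf1 KO library (y axis) and the wild-type library (x axis) for 9955 measured genes, with the 8 Gimap genes in red and the others in grey. The solid line marks equal levels and the dashed lines a log2 ratio of 1 in size; Gimap7 (4.92), Gimap3 (2.43) and Gimap5 (1.05) lie above the upper dashed line.

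The order of the genes by level was different in the 2 libraries. In the KO library it ran Gimap4, Gimap6, Gimap3, Gimap7, Gimap1, Gimap9, Gimap8 and Gimap5, where Gimap6 and Gimap3, and likewise Gimap7 and Gimap1, did not differ beyond their counting intervals. In the WT library it ran Gimap4, Gimap6, Gimap1, Gimap9, Gimap3, Gimap8, Gimap5 and Gimap7, with no such overlap between neighbours. Gimap4 was highest in both libraries, while Gimap7 took the fourth place in the KO, against the last in the WT. The highest member exceeded the lowest 18.0-fold in the KO library and 45.3-fold in the WT library. The genes nearest to Gimap4, the most abundant member, by distance on the log2(FPKM + 1) scale over the 2 libraries were Dnajc19, Prdx5 and Arhgef1, at 0.053, 0.10 and 0.10, and 26 genes lay within 0.25 of it.

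Summed over the 8 genes, the family reached 930.0 FPKM in the KO library and 442 FPKM in the WT library, a ratio of 2.11. Without Gimap7 the sums were 801 and 438 FPKM, a ratio of 1.83. Gimap7 made up 13.9% of the family's FPKM in the KO and 0.744% in the WT, and Gimap3 made up 19.1% in the KO and 7.30% in the WT. By reads, the family held 0.166% of the KO library (20280 reads) and 0.0791% of the WT library (20570 reads).

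**Figure D3:**
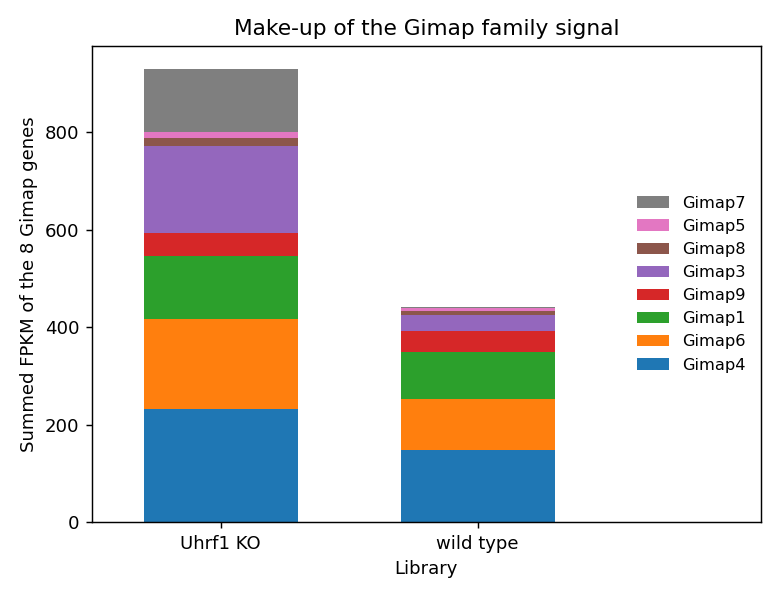
Summed FPKM of the Gimap genes, with 1 stacked bar for the Uhrf1 KO library (930.0 FPKM) and 1 for the wild-type library (442 FPKM). Segments are single genes; the Gimap7 segment at the top is 129 FPKM high in the KO and 3.29 FPKM high in the wild type.

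Some members share sequence or position with other genes, which bears on how reads were assigned. In the GENCODE M21 transcripts, 35.5% of the 50-base stretches of Gimap1 also occur in another gene, most of them in Gimap1os, a transcript of the opposite strand. The sources used here do not say whether counting used strand, and without it the reads of Gimap1 and Gimap1os cannot be told apart. Gimap3 shares 7.52% of its stretches with Gimap5, and Gimap5 shares 4.53% of its own with Gimap3. For Gimap5 the share understates the uncertainty, since Gimap3 had many more reads. If reads lay evenly over the transcript, 387 reads of Gimap3 in the KO and 152 in the WT would fall in stretches shared with Gimap5, against the 330 reads in the KO and 316 in the WT that Gimap5 had in all. How the counting split such reads is not given in the sources used here, so the level of Gimap5 and its place among the genes that rose are uncertain. Gm28053, a gene model on the same strand, spans Gimap7, Gimap1 and Gimap5, but 1.39% of the stretches of Gimap7 were shared. Gimap4, Gimap8 and Gimap9 had 0 shared stretches, and Gimap6 had 0.170%. No member's locus overlapped that of another gene listed in the tables; Gm28053 and Gimap1os were not analysed here.

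The cluster's neighbours did not share a direction. Of the 4 nearest listed genes on each side, 4 reached a mean FPKM of 1. Repin1, a zinc finger gene 48.1 kb before the cluster, had 10.9 FPKM in the KO and 1.55 FPKM in the WT and rose. Tmem176b and Tmem176a, 63.0 and 70.6 kb beyond it, had 4.56 and 1.35 FPKM in the KO, against 8.49 and 2.61 FPKM in the WT, and did not pass the rule. Gpnmb, a membrane glycoprotein gene of macrophages 266 kb beyond the cluster, had 13.2 FPKM in the KO and 2.45 FPKM in the WT and rose. Gm5111, Zfp775 and Aoc1 had 0 reads in both libraries, and AI854703 had 12 reads in the KO and 82 in the WT. Within the cluster, Gimap7 at 38.6-fold lay between Gimap6 at 1.75-fold and Gimap1 at 1.26-fold.

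**Figure D4:**
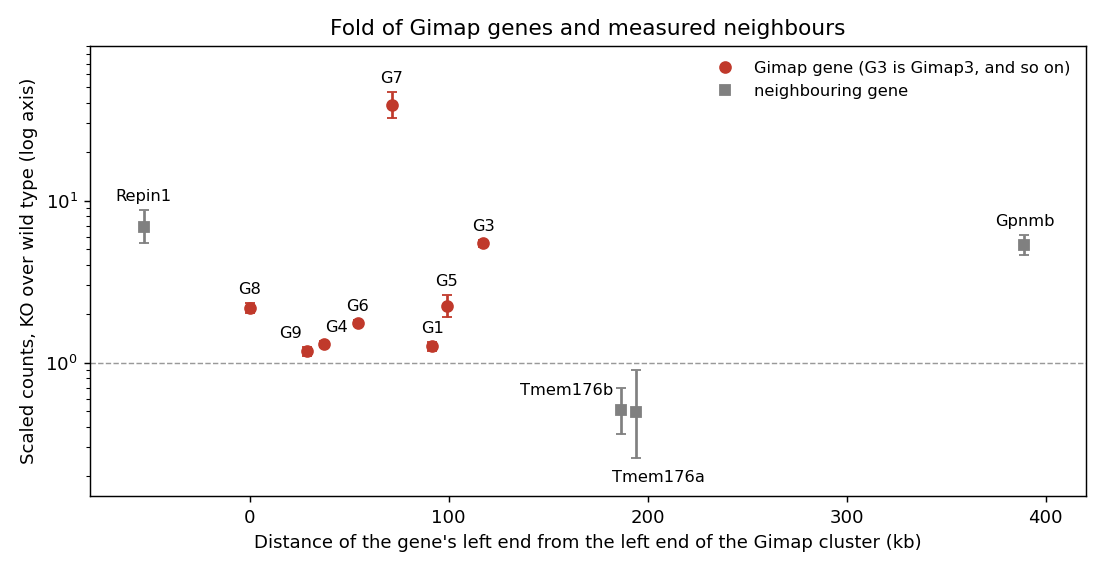
Ratio of scaled counts, Uhrf1 KO over wild type, on a log axis against the distance of each gene's left end (its lowest coordinate) from that of the cluster, for the Gimap genes (red circles) and the measured neighbours (grey squares). Bars are exact 95% intervals for counting error; the Gimap genes run from 1.17 (Gimap9) to 38.6 (Gimap7), and the dashed line marks equal values.

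Proteins that act with the GIMAPs were read beside them, starting with the BCL2 family, which sets the threshold for mitochondrial apoptosis. Of 9 measured genes 1 rose and 3 fell, with a median log2 ratio of 0.043. Beside this and each list that follows, the shares of all measured genes were 21.3% that rose and 23.6% that fell. The anti-apoptotic Bcl2 had 77.7 FPKM in the KO and 1.90 FPKM in the WT. Its ratio was 40.9 in FPKM and 19.5 in scaled counts (interval 17.8 to 21.4). The 3 genes that fell encode BH3-only proteins, which promote apoptosis. Bcl2l11, which encodes Bim, had 0.126 FPKM on 11 reads in the KO and 3.02 FPKM on 539 reads in the WT. Bid had 2.48 FPKM in the KO and 15.2 FPKM in the WT, and Bbc3, which encodes Puma, had 1.70 FPKM in the KO and 7.61 FPKM in the WT. Bad, the other BH3-only gene of the list and the most abundant of them, did not pass, with 28.3 FPKM in the KO and 26.8 FPKM in the WT; it is named after its value was seen, and its locus overlaps another gene. Bcl2l1 and Bax did not pass: Bcl2l1 had 32.6 FPKM in the KO and 31.6 FPKM in the WT, and Bax had 347 FPKM in the KO and 293 FPKM in the WT.

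In the ATG8 and autophagy list, read for its link to Gimap6, 1 of 9 genes rose and 2 fell (median -0.13). Among all measured genes 21.3% rose and 23.6% fell. Gabarapl2, the ATG8 protein bound by Gimap6, had 82.2 FPKM in the KO and 60.0 FPKM in the WT and did not pass. Becn1, part of the kinase complex that starts autophagosomes, had 65.9 FPKM in the KO and 22.0 FPKM in the WT, at a locus that overlaps another gene. Atg7 had 1.53 FPKM in the KO and 6.38 FPKM in the WT, and Gabarapl1, whose locus also overlaps another, had 0.543 FPKM in the KO and 4.05 FPKM in the WT. Of 5 genes around GSK3 and beta-catenin, a route through which Gimap5 acts in T cells, 1 rose, the scaffold Axin1 (44.6 FPKM in the KO, 17.3 FPKM in the WT), and 0 fell. Gsk3b had 6.45 FPKM in the KO and 8.83 FPKM in the WT, and its locus overlaps another gene.

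Genes of interleukin-7 signalling and of the Foxo1-Klf2 programme, which keep naive T cells alive and circulating, included 4 that rose and 1 that fell of 9 (median 0.92). S1pr1, the receptor that directs thymic exit, had 44.9 FPKM in the KO and 3.48 FPKM in the WT. Klf2 had 198 FPKM in the KO and 32.2 FPKM in the WT, Foxo1 had 41.7 FPKM in the KO and 6.73 FPKM in the WT, and Stat5a had 19.8 FPKM in the KO and 7.12 FPKM in the WT. The gene that fell was the receptor chain Il7r, named after its value was seen, with 34.9 FPKM in the KO and 77.2 FPKM in the WT.

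Other GTPase and quiescence families were set beside the Gimap genes as a description. Of 17 measured IRG, GBP and Mx genes, interferon-induced GTPases, 4 rose and 1 fell, with a median of 0.029. Among all measured genes 21.3% rose and 23.6% fell, so the number of these genes that rose was near the share over all genes. Mx2 had 8.54 FPKM on 268 reads in the KO and 0.101 FPKM on 7 reads in the WT, and Gbp4 had 25.6 FPKM in the KO and 6.23 FPKM in the WT. Of 6 measured Schlafen genes, linked to T cell quiescence, 2 rose and 0 fell (median 0.86). These were Slfn5, with 14.4 FPKM in the KO and 4.53 FPKM in the WT at a locus that overlaps others, and Slfn9, with 6.02 FPKM in the KO and 2.06 FPKM in the WT. The difference between these families and the Gimap genes was not tested.

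Genes listed as markers of other cells also differed between the libraries. Such genes, those of the gamma-delta T cell list included, may also be transcribed in iNKT cells. Bulk RNA cannot tell the sources apart. Of 17 naive T cell markers 10 rose and 2 fell (median 1.56), where 21.3% of all measured genes rose and 23.6% fell. Their summed level was 2953 FPKM in the KO and 1197 FPKM in the WT, with none at 0 reads. S1pr1, Klf2 and Il7r were also in the interleukin-7 and Foxo1-Klf2 list above, so the lists are not separate observations. The 2 that fell were Il7r and Itgae, named after their values were seen. Itgae had 16.1 FPKM in the KO and 56.2 FPKM in the WT, and its locus overlaps another gene. Dapl1 had 651 FPKM in the KO and 14.1 FPKM in the WT. Of 8 markers of CD4 CD8 double-positive thymocytes, the stage before selection, 0 rose and 5 fell (median -1.60), and the sum was 114 FPKM in the KO and 162 FPKM in the WT. Without Cd8a it was 46.9 FPKM in the KO and 109 FPKM in the WT. Cd24a had 0.142 FPKM on 5 reads in the KO and 15.5 FPKM on 1109 reads in the WT. Of 4 measured gamma-delta T cell markers 0 rose and 3 fell, with sums of 7.17 FPKM in the KO and 171 FPKM in the WT, and Blk was at 0 in the KO. Of 10 measured myeloid markers 7 rose and 2 fell, with Itgax at 0 in both libraries. Those that fell were S100a8 and S100a9. S100a8 had 0 reads in the KO and 86.4 FPKM on 902 reads in the WT. S100a9 had 0.908 FPKM on 5 reads in the KO and 95.6 FPKM on 1169 reads in the WT. The sums that follow thus pool opposite changes. The myeloid sum was 3718 FPKM in the KO and 834 FPKM in the WT, of which Apoe made up 2676 FPKM in the KO and 246 FPKM in the WT. Without Apoe the sum was 1042 FPKM in the KO and 588 FPKM in the WT. The part of these cells in the Gimap values was not tested.

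B cells, NK cells and endothelial cells also carry GIMAP transcripts, and their markers were read for that reason. Of 7 B cell markers found, Ms4a1, Pax5, Ebf1, Cd22 and Fcer2a had 0 reads in both libraries. Cd79b had 14.8 FPKM in the KO and 17.4 FPKM in the WT. Cd79a, named after its value was seen, had 0.763 FPKM on 11 reads in the KO and 0 reads in the WT. Its mean level was below the limit for measured genes. Of 11 endothelial markers, Kdr, Tek, Esam, Emcn and Robo4 had 0 reads in both libraries. In the same list Cldn5 (19.7 FPKM in the KO, 0.298 FPKM in the WT) and Plvap rose, while Eng fell (2.17 FPKM in the KO, 42.9 FPKM in the WT); Plvap is named after its value was seen. The sum over the endothelial list was 60.3 FPKM in the KO and 63.6 FPKM in the WT, and without Eng it was 58.1 FPKM in the KO and 20.7 FPKM in the WT. Of 4 measured NK cell markers 2 rose, Nkg7 and Klra8, and 2 fell, Gzma and Klrb1c. Among all measured genes 21.3% rose and 23.6% fell. Klra8, named after its value was seen, had 3.28 FPKM on 76 reads in the KO and 0 reads in the WT. Its locus overlaps others. The genes of the NK list may also be transcribed in iNKT cells, and bulk RNA cannot tell the sources apart. The sum over the NK list was 571 FPKM in the KO and 247 FPKM in the WT, and nearly all of it was Nkg7, with 567 FPKM in the KO and 196 FPKM in the WT. Without Nkg7 the sum turned direction, to 3.89 FPKM in the KO and 51.3 FPKM in the WT. Erythroid markers rose in 5 of 6 measured genes and stromal markers in 4 of 6, with none fallen; their sums were 1205 and 89.9 FPKM in the KO, against 320.2 and 27.1 FPKM in the WT. Without Hba-a2 the erythroid sum was 657 FPKM in the KO and 97.7 FPKM in the WT. The gene left out of each sum was the most abundant of its list, a choice made after the values were seen. The part of these cells in the Gimap values was likewise not tested.

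**Figure D5:**
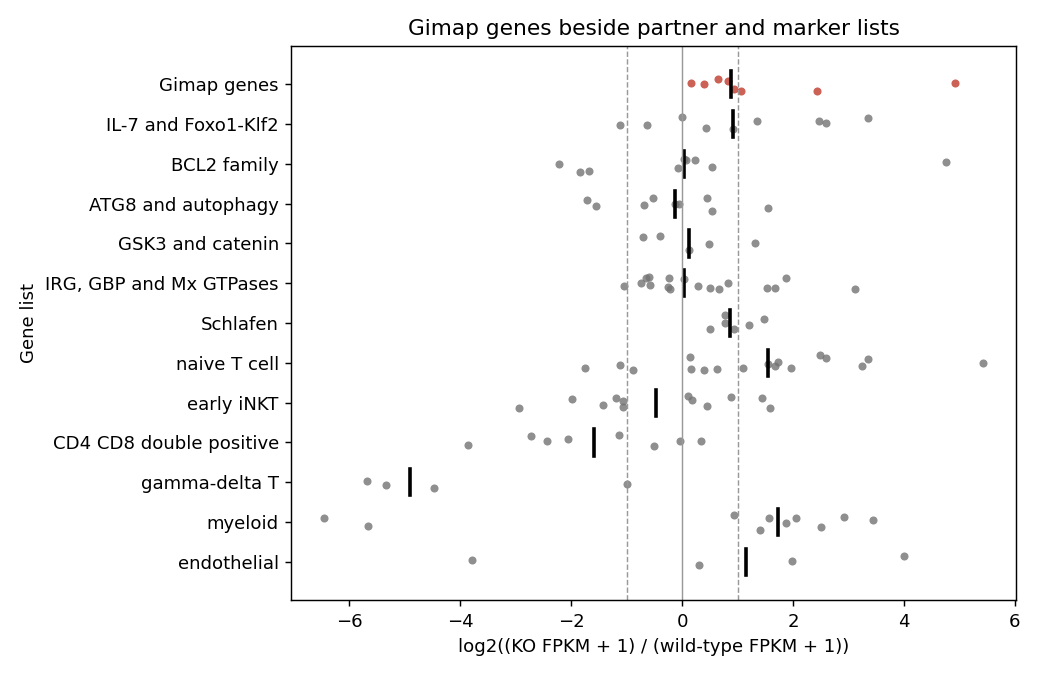
Log2 ratios, Uhrf1 KO over wild type, of the measured members of 13 gene lists, with a point per gene and a black bar at the list's median; dashed lines mark a ratio of 1 in size. The 8 Gimap genes in red all lie above 0 (median 0.88), while the BCL2 family (median 0.043) and the IRG, GBP and Mx GTPases (median 0.029) spread to both sides.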

How the data were processed

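Sorted stage 1 iNKT cells were lysed in Trizol and TruSeq RNA libraries were made, per the labels' protocols, with 1 library per genotype. TopHat2 2.0.9, Cufflinks 2.1.1 and mm10 are named in the submitters' processing notes; no source used here gives their roles, the annotation or the use of strand. The authors deposited an FPKM value per gene, per the file headers. The deposited column called a count behaves as a scaled signal: most values are whole multiples of 1.70 in the KO and 0.799 in the WT, and dividing by these steps gave reads. Within 0.01 of a read or the files' rounding, 98.7% of nonzero genes were whole in the KO and 98.3% in the WT, the 8 members included. Fractions remained, so no count model was used.

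The log2 ratio used a pseudocount of 1, which understates low genes, a mean FPKM of at least 1 and a size rule of 1. Folds are ratios of scaled counts with 95% Clopper-Pearson intervals on the reads. The members and 16 other lists (160 distinct names, 151 found; 1 further marker is not reported here), and the rule for named genes, were chosen with earlier results of these data known. The rule takes all members, Uhrf1, the 4 listed neighbours on each side, up to 4 genes of each partner or family list and up to 2 of each marker list with the largest ratio, the fixed genes Bcl2, Bcl2l1, Bax, Gabarapl2 and Gsk3b, and the 3 genes nearest the most abundant member. No protein sequences were used here. Steps were tested on simulated data. Software was scipy 1.17.1, pandas 2.3.3, numpy 2.4.6 and, for plots, matplotlib 3.10.9, under Python 3.11.15.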

Additional observations from a re-analysis of the deposited data

How the results depend on the processing

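All 8 Gimap genes kept a log2 ratio above 0 under the 4 settings that could change its sign, the 3 rescalings and the scaled counts. The other 7 keep the sign by construction. The number that rose was 2 with a pseudocount of 5 and with upper-quartile scaling (both without Gimap5) and with a size rule of 2, 4 with a pseudocount of 0.1 and on scaled counts (both with Gimap8 added), and 6 with a size rule of 0.5, at which 33.5% of all measured genes rose. None fell in these settings. The median log2 ratio of 0.88 became 0.73 with a pseudocount of 5 and 0.75 with upper-quartile scaling, and the log2 ratio of the summed FPKM of 1.07 became 0.94 with that scaling. Over all genes, 2116 rose in the main setting, 2344 with a pseudocount of 0.1, 2368 on scaled counts and 1889 with upper-quartile scaling. With a pseudocount of 5, 1292 rose and 1254 fell. With a size rule of 2, 851 rose (8.55% of measured genes) and 1026 fell (10.3%). A size rule of 0.5 gave 3332 that rose and 3445 that fell. In a separate setting, a mean FPKM of at least 5 with the size rule of 1, 1424 rose and 1247 fell. Chosen after the data were seen, leaving out Gimap7 gave a summed log2 ratio of 0.87 and 2 genes that rose. Leaving out Gimap1, Gimap3 and Gimap5 for their shared stretches gave 0.99 and 1 gene, since 2 of those left out had risen. Leaving out members whose locus in the tables is shared with another listed gene was not run, as none shared one there. Gm28053 and Gimap1os, which overlap members in the annotation, were not analysed here. On scaled counts the log2 ratio of Gimap4 was 0.38, against 0.64 in FPKM; the cause was not tested. No paired analysis was possible because each genotype had 1 library.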
